A study of Homo sapiens with 9 samples.

Results

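The 47 genes described here encode the proteins that license origins of DNA replication and build and run the replication fork, together with 3 enzymes that supply deoxynucleotides. They were chosen by name as subunits of known complexes, from the 60675 genes in the count files, and the rule itself uses no expression value, although the set was proposed with earlier results of these data known. All 47 were found by symbol through their Ensembl identifiers, and all 47 held enough counts to be tested, so no member was left out by the filter on low counts.

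Licensing takes place before S phase, when the origin recognition complex (ORC), CDC6 and CDT1 load the MCM2-7 ring onto origins in an inactive form, and geminin (GMNN) blocks CDT1 once synthesis has begun. At firing, CDC45 and the GINS complex turn the ring into the active helicase. DNA polymerase α-primase lays down primers, replication factor C (RFC) loads the sliding clamp PCNA, RPA coats single-stranded DNA and polymerases δ and ε copy the strands. Many of these genes are transcribed as cells approach S phase, in large part through E2F factors, and MCM proteins are used in pathology as markers of cycling cells.

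The libraries were RNA-seq of LNCaP:C42, the castrate-resistant subline LNCaP:C4-2 of the prostate cancer line LNCaP, which carried a doxycycline-inducible lentiviral hairpin and had been selected with puromycin at 1 μg/ml. There were 3 groups of 3 libraries each. By the labels, the shScramble cells carried a hairpin against no gene, and the other groups, called guide 2 and guide 1, each carried a hairpin against a separate site of METTL3, the catalytic subunit of the RNA m6A methyltransferase. The cells of all groups were kept in medium free of phenol red with charcoal-stripped serum and received doxycycline at 1 μg/ml for 6 days according to the protocol, although a vehicle stands in their titles. The comparisons therefore set separately selected cell populations against each other and not one population before and after induction. Viral particles were made in HEK293T, a line of embryonic kidney origin. Nothing in the labels says that the 3 libraries of a group came from separate cultures, so p-values measure only the spread between these libraries. The total count was 21899501 to 30897639 per library.

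The targeted gene was examined first. METTL3 stood at 29.8, 31.7 and 33 CPM (counts scaled to a common library size with TMM factors) in the shScramble libraries and at 16.6, 16.5 and 15.8 CPM in the guide 2 libraries. It was lower in all guide 2 libraries, by 0.95 on the log2 scale. In the other group METTL3 stood at 29.4, 30.1 and 29.6 CPM (log2 fold change -0.08 ± 0.0633 SE, edgeR adjusted p = 0.251), so the knockdown was not seen in the libraries labelled guide 1. Whether these libraries are what their labels say is in doubt, and guide 1 is used here as a label only and not as a second knockdown of METTL3. The hairpin of guide 2 targets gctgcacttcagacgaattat, which spans the junction of exon 4 and exon 5 of METTL3-201, and that of guide 1 targets cgtcagtatcttgggcaagtt in the coding part of exon 6 of the same transcript.

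The groups also differed in lists of lineage genes. Luminal prostate genes, among them KRT8, KRT18, HOXB13 and FOLH1, were present in every library, and their 13-gene list summed to 3085 to 3143 CPM in shScramble, 3572 to 3711 CPM in guide 2 and 1589 to 1649 CPM in the libraries labelled guide 1. In the latter, 8 of the 13 were called lower than in shScramble and 0 higher, against 16.5% and 21.2% of all genes tested. With guide 2 the list was mixed, with 3 called higher and 2 lower, against 8.85% and 20.4%. Its log2 fold changes ran from -2.08 for TRPM8 to 1.24 for AMACR, which shares 64.8% of its exon bases with other genes on the same strand. A list of 12 genes expressed in HEK293T (VIM, the neurofilaments NEFL, NEFM and INA, LIN28B and others), several of which were known from earlier results of these data, summed to 62.1 to 69.3 CPM in shScramble, 17.5 to 19.5 CPM in guide 2 and 497 to 528 CPM in the libraries labelled guide 1. Of the 12, 10 were called lower in guide 2, against 20.4% of all genes tested, and 11 were called higher in guide 1, against 21.2%. PAX8 went the other way in guide 1, at a log2 fold change of -0.99, and was not called. In lists of other cell types, the basal genes KRT5 and TP63, the fibroblast gene DCN, the endothelial gene PECAM1 and the T cell genes CD3E and CD3D held 0 counts in every library, but other genes of these lists were present. The 8 fibroblast genes summed to 43.6 to 47 CPM in shScramble, mostly COL1A1, to 37.3 to 40.7 CPM in guide 2 and to 20 to 26.4 CPM in guide 1, where COL1A1 and PDGFRB were called lower, whereas PDGFRB was called higher in guide 2. The 6 basal genes summed to 79.9 to 89.2, 89.9 to 95.1 and 109 to 120 CPM in the same order, nearly all from DST and ITGA6, and DST was called higher in guide 1. The 6 endothelial genes summed to 1.27 to 1.84, 3.07 to 3.63 and 0.948 to 1.51 CPM, with VWF called higher in guide 2 and lower in guide 1, and the 7 immune genes to at most 0.789 CPM in any library. The part of these differences in the results below was not tested. The summed level of the 47 replication genes was 2237 to 2339 CPM in shScramble, 3681 to 3803 CPM in guide 2 and 4789 to 4901 CPM in the libraries labelled guide 1.

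**Figure D1:**
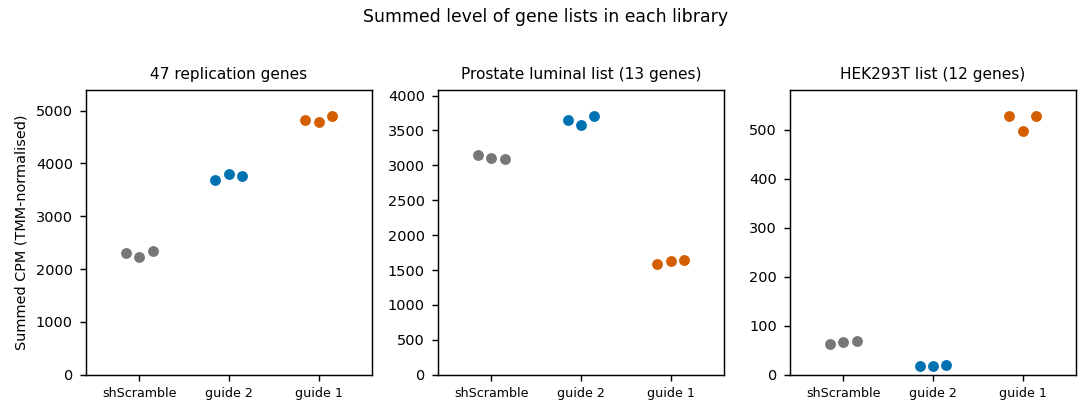
Summed CPM (vertical axes, each starting at 0) of the 47 replication genes, the 13 luminal prostate genes and the 12 genes of the HEK293T list in each of the 9 libraries (points), by group. The replication genes sum to 2237 to 2339 CPM in shScramble, 3681 to 3803 CPM in guide 2 and 4789 to 4901 CPM in guide 1, and the groups do not overlap in any of the lists.

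The stretch of 160 bases just before the transcription start is shown for 5 members that mark the range of the responses. PCNA has 2 annotated starts in RefSeq, and only the first is shown. No match to the E2F letters given below was found around the second. MCM6 and PCNA were called higher in both guide 2 and guide 1, MCM10 had the largest rise with guide 2, POLA1 was called in guide 1 alone, and POLE was the only member called lower with guide 2. Sequences are those of RefSeq on GRCh38.p14, written in the direction of the gene. They lie at chr2:135876444-135876603 (minus strand) for MCM6, chr20:5126623-5126782 (minus strand) for PCNA, chr10:13161398-13161557 (plus strand) for MCM10, chrX:24693758-24693917 (plus strand) for POLA1 and chr12:132687343-132687502 (minus strand) for POLE, and the last 4 bases for PCNA, 4 for MCM10 and 23 for POLE are inside the gene as the count files annotate it. Capitals mark matches, on either strand, to the E2F letters TTTCCCGC, TTTCGCGC, TTTGCCGC or TTTGGCGC.
MCM6: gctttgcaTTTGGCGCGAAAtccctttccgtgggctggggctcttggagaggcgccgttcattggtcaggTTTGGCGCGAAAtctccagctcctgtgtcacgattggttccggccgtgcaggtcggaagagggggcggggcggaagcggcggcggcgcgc
PCNA: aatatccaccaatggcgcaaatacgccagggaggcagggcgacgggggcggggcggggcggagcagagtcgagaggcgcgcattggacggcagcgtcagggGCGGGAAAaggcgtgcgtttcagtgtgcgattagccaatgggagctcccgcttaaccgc
MCM10: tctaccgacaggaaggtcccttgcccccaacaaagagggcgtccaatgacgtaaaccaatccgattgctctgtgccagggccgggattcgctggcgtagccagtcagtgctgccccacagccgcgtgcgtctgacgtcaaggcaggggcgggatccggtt
POLA1: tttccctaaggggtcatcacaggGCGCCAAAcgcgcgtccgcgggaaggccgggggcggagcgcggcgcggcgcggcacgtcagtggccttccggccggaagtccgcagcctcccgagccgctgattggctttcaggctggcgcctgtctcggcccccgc
POLE: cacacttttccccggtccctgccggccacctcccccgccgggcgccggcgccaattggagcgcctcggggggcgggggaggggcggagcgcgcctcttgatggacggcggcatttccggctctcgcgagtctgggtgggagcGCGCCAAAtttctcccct

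The window searched ran from 250 bases before to 50 bases after each start, and 40 of the 47 members had at least 1 such window in the RefSeq table. A match to the E2F letters was present in 19 of these 40 members (47.5%), against 1090 of the 27305 genes in the table (3.99%), and in 19 of their 53 windows (35.8%), against 1164 of all 35116 windows (3.31%). The CCAAT box, searched as CCAAT on both strands, was present in 26 of the 40 (65%), against 39.7% of all genes, and in 32 of the 53 windows (60.4%), against 34.6% of all windows. In MCM6, 4 matches formed 2 overlapping pairs, each reading TTTGGCGCGAAA, whereas the printed stretch of MCM10 held 0 matches to the E2F letters. Of the 24 members with a window that were called higher in both groups, 13 held a match, among them MCM2, MCM3, MCM6, MCM7, PCNA, CDC6 and CDT1. Of the 16 others, 6 did, and these included POLE and ORC3, which were lower with guide 2 than in shScramble. The match of ORC3 was GCGGGAAA, from base -12 to base -5 before the start. A match describes letters in the window and not a bound site.

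With guide 2, 28 of the 47 genes were called higher than in shScramble, 1 was called lower and 18 were not called. Called here means an adjusted p (Benjamini-Hochberg, over all 19278 genes tested) under 0.05 together with a change of 1.5-fold or more, which is 0.58 on the log2 scale. By this rule 8.85% of all genes tested were called higher with guide 2 and 20.4% lower. Of the replication genes, 59.6% were called higher. Their median log2 fold change was 0.70, against -0.04 over all genes tested, with a range from -0.68 for POLE to 1.84 for MCM10. In 42 members all guide 2 libraries lay above all shScramble libraries, and in 4 they lay below, whereas 32.5% and 34.1% of all genes tested were separated in this way. By the adjusted p alone, 41 members were higher and 4 lower, against 30.0% and 31.7% of all genes tested. The fit without the guide 1 libraries gave 28 members called higher and 2 called lower. The calls of GINS2, GINS3, RFC5, RPA1 and PRIM2, the smallest of the 28 by log2 fold change, were lost when libraries were scaled by their size alone, which left 23. In these bulk libraries, more cells in S phase and more RNA of these genes per cell cannot be told apart.

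In the libraries labelled guide 1, 40 of the 47 genes were called higher and 1 was called lower, where 21.2% and 16.5% of all genes tested were called in those directions. The median was 1.27, against -0.02 over all genes tested, and the range ran from -1.0 for POLD4 to 2.26 for MCM3. All libraries of this group lay above shScramble in 43 members and below it in 2, against 36.5% and 34.5% of all genes tested, and the adjusted p alone called 43 higher and 1 lower, against 35.4% and 33.0%. Both comparisons used the same shScramble libraries. The members called higher in both numbered 27, RPA1 was called higher with guide 2 alone, and 13 were called higher in the libraries labelled guide 1 alone. POLE was called lower with guide 2 alone, POLD4 was called lower in guide 1 alone, and ORC4, ORC5, RPA3 and POLD2 were called in neither comparison. The direct comparison of guide 2 with guide 1 called 2 members higher and 18 lower, where 19.1% and 28.2% of all genes tested were called, with a median of -0.54 against -0.06 over all genes tested. The libraries of guide 2 lay above those of guide 1 in 8 members and below them in 37, against 35.4% and 40.4% of all genes tested, and by the adjusted p alone 7 were higher and 38 lower, against 34.7% and 39.9%.

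**Figure D2:**
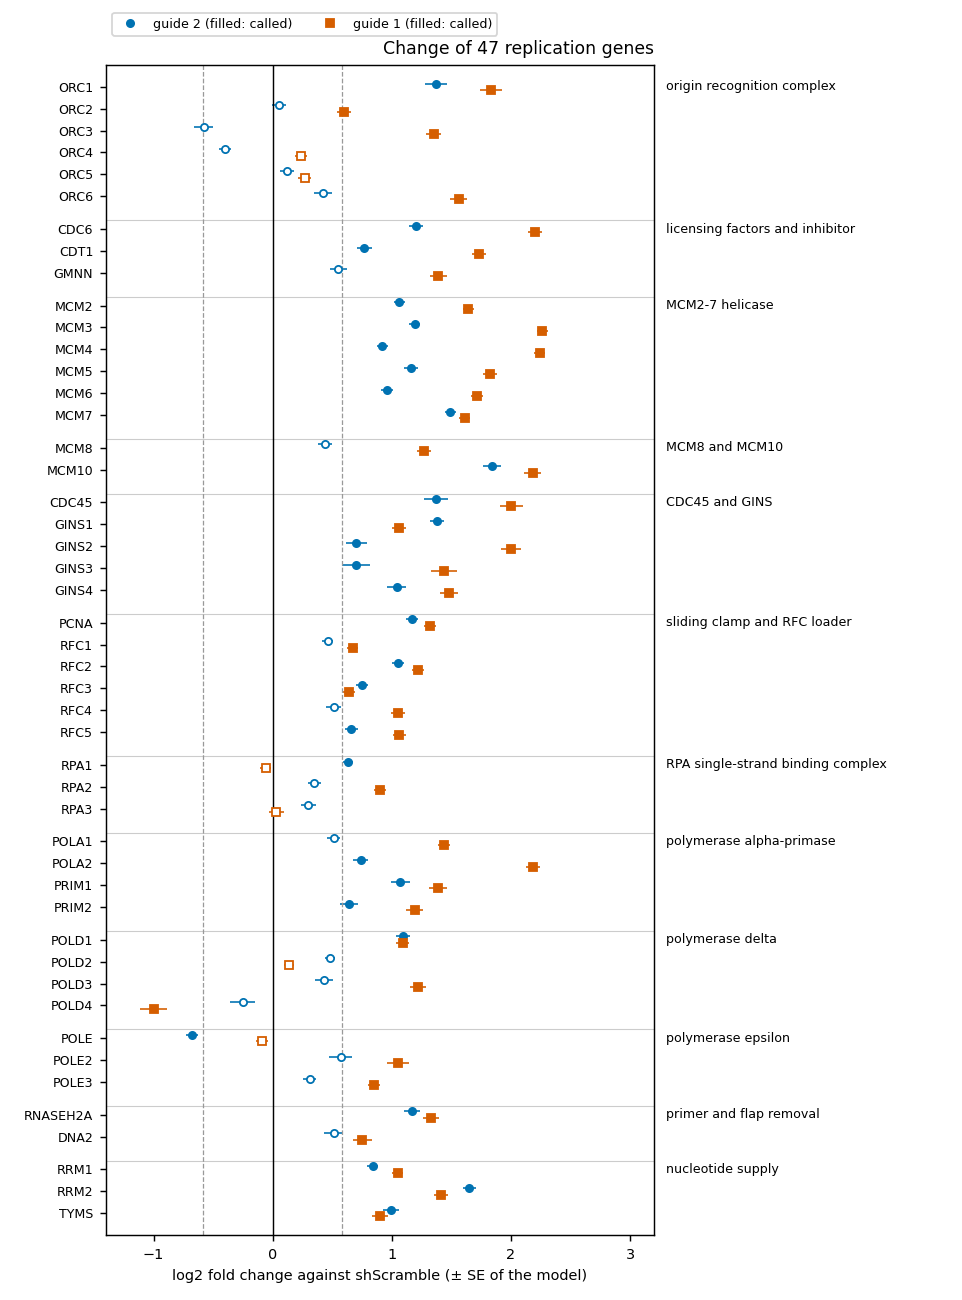
Log2 fold change (horizontal axis) of the 47 genes against shScramble, grouped by complex, for guide 2 (circles) and guide 1 (squares). Bars are the SE of the fitted model, filled symbols are called genes and dashed lines mark a change of 1.5-fold; all MCM2-7 and GINS genes lie to the right of the line in both groups, whereas ORC3, ORC4, POLE and POLD4 lie to the left of 0 with guide 2.

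The origin recognition complex, which marks origins for loading, spanned the widest range of log2 fold changes of the complexes with guide 2, from -0.58 to 1.37. Of its 6 genes only ORC1 was called, as higher, and the median log2 fold change was 0.09. ORC1, the subunit whose protein level changes over the cell cycle, stood at 10, 8.1 and 7.8 CPM in shScramble, at 23, 20.5 and 23.9 CPM in guide 2 and at 28.4, 32.2 and 31.8 CPM in the libraries labelled guide 1. It was 2.58-fold higher with guide 2 (log2 fold change 1.37 ± 0.0943, edgeR adjusted p = 1.03e-12) and 3.54-fold higher in guide 1, and the 3 groups did not overlap.

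ORC3, a core subunit, had its guide 2 and guide 1 libraries on opposite sides of the controls. Its values were 17, 17.5 and 16.5 CPM in shScramble, 10.9, 11.8 and 11.3 CPM in guide 2 and 44, 41.8 and 44 CPM in the libraries labelled guide 1. All guide 2 libraries lay below and all guide 1 libraries above the controls. The summed HEK293T list had this order of groups and the summed 47 members did not, and a link was not tested. The difference with guide 2 (log2 fold change -0.58 ± 0.0764, edgeR adjusted p = 2.07e-07) stopped just short of the 1.5-fold threshold, and it was called in the fit without the guide 1 libraries, at -0.60. The rise in guide 1 was 2.54-fold and called. The direct difference between the guides, -1.93 ± 0.071 on the log2 scale (edgeR adjusted p = 1.84e-19), was the largest among the 47 genes.

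ORC4, another core subunit, showed the same order at a smaller size, with 51.4, 52.7 and 48.8 CPM in shScramble, 37.7, 39.4 and 39.3 CPM in guide 2 and 62, 60.5 and 58.7 CPM in the libraries labelled guide 1. Its log2 fold changes of -0.40 and 0.24 against shScramble were not called, and the direct difference between the guides of -0.64 was. ORC6, which is needed for loading of the helicase, was 1.34-fold higher with guide 2, which was not called, and 2.95-fold higher in guide 1. ORC2 overlapped shScramble with guide 2 (log2 fold change 0.05 ± 0.0586, edgeR adjusted p = 0.446) and was called at 0.60 in guide 1, a call that was lost at 0.56 with upper-quartile scaling. ORC5, at 59.2 to 65.6 CPM in shScramble, was called in neither comparison. Levels per kilobase, here and below, divide by all annotated exons of a gene. The transcripts present were not determined, so rankings between genes depend on the annotation. Per kilobase of exon, ORC5 was the most abundant subunit in every group, at 16.7 CPM per kb in shScramble, 18.1 in guide 2 and 20.1 in guide 1, and ORC1 was the least abundant in shScramble, at 2.74 CPM per kb, whereas with guide 2 this place was taken by ORC3, at 3.08 CPM per kb.

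The loading factors CDC6 and CDT1 were called higher than in shScramble in both guide 2 and the libraries labelled guide 1. CDC6, the ATPase that joins ORC on the origin, stood at 30.3, 29.3 and 34.7 CPM in shScramble, at 71.6, 73.8 and 69.9 CPM in guide 2 and at 151, 136 and 145 CPM in the libraries labelled guide 1. It was 2.29-fold higher with guide 2 (log2 fold change 1.20 ± 0.0593, edgeR adjusted p = 1.2e-15) and 4.59-fold higher in guide 1. CDT1, which brings the helicase to the origin, was 1.7-fold higher with guide 2 and 3.32-fold higher in guide 1. GMNN, its inhibitor, was at 22.9, 21.7 and 25 CPM in shScramble and at 31.6, 36.1 and 33.6 CPM in guide 2. This separated the groups but, at a log2 fold change of 0.55, missed the fold threshold, and GMNN was called at 1.39 in guide 1. The ratio of CDT1 to GMNN was 1.51 to 1.81 in the shScramble libraries, 1.75 to 2.17 in guide 2 and 1.74 to 2.36 in guide 1, so that the ranges overlapped. All 3 genes were called lower in guide 2 than in guide 1.

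All 6 genes of the MCM2-7 ring, the core of the replicative helicase, were called higher than in shScramble in both groups. Their median log2 fold change was 1.11 with guide 2, from 0.92 for MCM4 to 1.49 for MCM7, and 1.77 in the libraries labelled guide 1, from 1.61 for MCM7 to 2.26 for MCM3. MCM7 stood at 131, 124 and 142 CPM in shScramble, 369, 378 and 368 CPM in guide 2 and 413, 400 and 397 CPM in guide 1. It was therefore the ring gene with the largest rise with guide 2 (2.81-fold, log2 fold change 1.49 ± 0.0488, edgeR adjusted p = 3.74e-19) and with the smallest rise in guide 1. MCM7 lies on chromosome 7 at 100092728-100101940, where 8.94% of its exon bases are shared with AP4M1, so some of its reads could belong to that gene.

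MCM3 and MCM4 had the largest rises of the ring in guide 1. MCM3 stood at 48.3, 50.1 and 50.4 CPM in shScramble, 110, 115 and 113 CPM in guide 2 and 237, 234 and 240 CPM in guide 1, a 2.28-fold and a 4.78-fold rise. MCM4 stood at 63.2, 62.6 and 63 CPM in shScramble, 113, 122 and 123 CPM in guide 2 and 286, 307 and 300 CPM in guide 1, a 1.9-fold and a 4.73-fold rise. In both genes the guide 2 libraries lay between the other groups with no overlap. MCM2, MCM5 and MCM6 were 2.09-fold, 2.24-fold and 1.95-fold higher with guide 2 and 3.11-fold, 3.54-fold and 3.28-fold higher in guide 1. The direct comparison called MCM3, MCM4, MCM5 and MCM6 lower in guide 2 than in guide 1, by -1.07, -1.32, -0.66 and -0.75 on the log2 scale, and did not call MCM2 (-0.57) or MCM7 (-0.12).

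The proteins of the ring act in equal numbers, but the RNA levels per kilobase of annotated exon were not equal. Annotated exons cover 7338 bases in MCM5 and 4386 in MCM7, and the part of exon length in this spread was not tested. MCM7 was the most abundant at 30.2 CPM per kb in shScramble, 84.8 in guide 2 and 92 in guide 1, and MCM5 was the least abundant at 4.57, 10.2 and 16.1 CPM per kb. The ratio of the highest to the lowest was 6.6 in shScramble, 8.32 in guide 2 and 5.71 in guide 1. Within a library, the ratio of MCM7 to MCM2 in CPM was 1.49 to 1.73 in shScramble, 2.06 to 2.16 in guide 2 and 1.45 to 1.65 in guide 1, so the guide 2 libraries stood apart from both other groups.

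**Figure D3:**
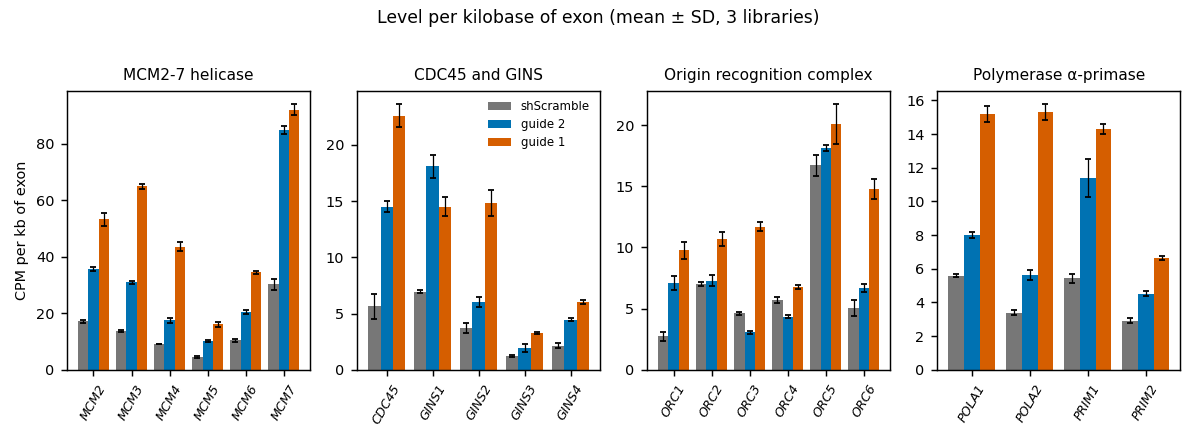
Mean level per kilobase of exon (CPM per kb, bars start at 0) of the genes of 4 complexes in shScramble, guide 2 and guide 1, with the SD of 3 libraries. MCM7 rises from 30.2 to 84.8 and 92 CPM per kb, and MCM5 stays the lowest of its ring at 4.57 to 16.1 CPM per kb. Compared with its own level in shScramble, ORC3 is lower in guide 2 and higher in guide 1.

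The helicase is activated by MCM10, CDC45 and GINS. MCM10, on chromosome 10 at 13161554-13211104, had the largest rise of all members with guide 2. It stood at 13.6, 10.8 and 13.5 CPM in shScramble, 45.6, 43.7 and 45.2 CPM in guide 2 and 56, 59 and 55.7 CPM in the libraries labelled guide 1. The rise was 3.57-fold with guide 2 (log2 fold change 1.84 ± 0.0731, edgeR adjusted p = 1.43e-17) and 4.53-fold in guide 1. MCM8, a helicase of recombination outside the ring, was 1.36-fold higher with guide 2, which was not called, and 2.41-fold higher in guide 1.

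All 5 genes of CDC45 and GINS were called higher in both groups, with medians of 1.04 and 1.48 on the log2 scale. CDC45 was the least even of the 47 genes among the controls, with 19.1, 12.8 and 16.2 CPM (a coefficient of variation of 19.7%, against a median of 5.07% over the members). It stood at 41.4, 42.7 and 39.8 CPM in guide 2 and at 60.9, 65.6 and 66.2 CPM in guide 1, well above that spread, and rose 2.58-fold and 4.01-fold. GINS1 was highest in guide 2. Its values were 28.2, 27.7 and 28.8 CPM in shScramble, 71, 78.4 and 71.7 CPM in guide 2 and 62.7, 56 and 58.1 CPM in guide 1, and the difference between the guides of 0.32 was not called. GINS2 went from 11.2 to 13.8 CPM in shScramble to 18.2 to 21.2 CPM in guide 2 and 44.7 to 52.2 CPM in guide 1. GINS3, the lowest of the complex at 5.86 to 6.57 CPM in shScramble, reached 8.58, 12 and 9.38 CPM in guide 2, and its call at a log2 fold change of 0.70 was lost, at 0.54, without the second of these libraries. GINS4 was 2.05-fold and 2.78-fold higher, with 23.6% of its exon bases shared with genes on the other strand, as are 10.9% of those of GINS3.

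The sliding clamp and 3 of the 5 loader genes were called higher in both groups. PCNA, the clamp that holds the polymerases on DNA, stood at 65.2, 66.5 and 70.7 CPM in shScramble, 149, 153 and 154 CPM in guide 2 and 174, 156 and 174 CPM in the libraries labelled guide 1. It was 2.26-fold higher with guide 2 (log2 fold change 1.17 ± 0.0505, edgeR adjusted p = 6.74e-17) and 2.49-fold higher in guide 1, with no overlap of the controls with either group. Of the RFC genes, RFC2, RFC3 and RFC5 were called higher with guide 2, at log2 fold changes of 1.05, 0.75 and 0.66. RFC1 and RFC4 were not, at 0.46 and 0.51. RFC5 shares 10.65% of its exon bases with genes on the other strand. All 5 RFC genes were called higher in guide 1, from 0.64 for RFC3 to 1.22 for RFC2. The direct comparison of the guides called 0 of the 6 genes, although 1 had a higher and 5 had a lower level in guide 2 at an adjusted p under 0.05 alone. PCNA was the most abundant of the 6 per kilobase in every group, and the ratio of PCNA to RFC1, the large loader subunit, was 0.879 to 0.925 in shScramble, 1.43 to 1.55 in guide 2 and 1.34 to 1.47 in guide 1. PCNA, RFC and polymerase δ also act in long-patch base excision repair.

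The RPA complex, which protects single-stranded DNA, split by subunit. RPA1, the large DNA-binding subunit, stood at 179, 179 and 182 CPM in shScramble, 269, 275 and 292 CPM in guide 2 and 170, 177 and 171 CPM in the libraries labelled guide 1. It was 1.55-fold higher with guide 2 (log2 fold change 0.63 ± 0.0442, edgeR adjusted p = 1.45e-12), lay slightly under the controls in guide 1 (-0.06 ± 0.0443, edgeR adjusted p = 0.238), and the difference between the guides was called at 0.69. The call with guide 2 was lost at a log2 fold change of 0.48 with library sizes alone, at 0.50 with upper-quartile scaling and, just under the fold threshold, at 0.58 with a filter on a mean of at least 1 CPM. RPA2 lay above the controls in both groups and was highest in guide 1, at 58.5, 61.3 and 61.8 CPM in shScramble, 76.3, 81.5 and 73 CPM in guide 2 and 113, 108 and 117 CPM in guide 1, and was called in guide 1 only. RPA3 was called in neither comparison, at log2 fold changes of 0.30 and 0.03.

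**Figure D4:**
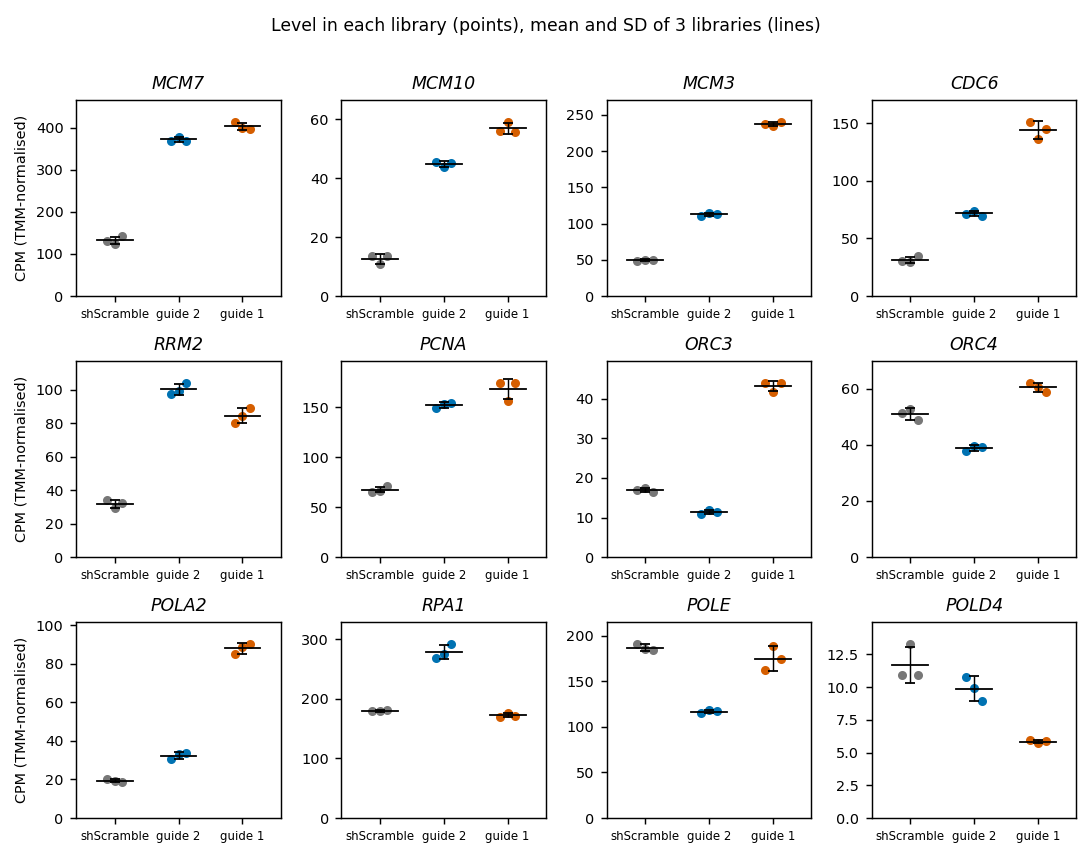
CPM in each library (points; vertical axes start at 0) of 12 members in shScramble, guide 2 and guide 1, with the mean and SD of 3 libraries (lines). MCM7, MCM10, MCM3, CDC6, RRM2, PCNA and POLA2 are higher than shScramble in both groups, ORC3 and ORC4 are lowest in guide 2 and highest in guide 1, RPA1 is raised in guide 2, POLE is lowered in guide 2, and POLD4 is lowest in guide 1.

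The polymerases differed by enzyme. All 4 genes of DNA polymerase α-primase, which starts each new strand, were called higher in the libraries labelled guide 1 and 3 of 4 with guide 2. POLA2, its regulatory subunit, stood at 20.3, 19.3 and 18.6 CPM in shScramble, 30.4, 33 and 33.6 CPM in guide 2 and 84.9, 88.6 and 90.2 CPM in guide 1. It was 1.66-fold higher with guide 2 (log2 fold change 0.74 ± 0.0627, edgeR adjusted p = 7.66e-11) and 4.53-fold higher in guide 1, and the difference between the guides of -1.44 was the second largest fall among the members. PRIM1, the catalytic primase subunit, was 2.1-fold and 2.63-fold higher, and PRIM2 was 1.56-fold and 2.29-fold higher. POLA1, the catalytic subunit, was at a log2 fold change of 0.51 with guide 2, not called, and at 1.44 in guide 1.

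In polymerase δ, which makes the lagging strand, POLD1 alone was called with guide 2. This catalytic subunit stood at 28.2, 28.2 and 30.9 CPM in shScramble, 59, 63.3 and 63.6 CPM in guide 2 and 60.2, 64.5 and 60.6 CPM in guide 1. It was therefore 2.13-fold higher in both groups, which overlapped each other. POLD1 shares 8.77% of its exon bases with another gene on the same strand. POLD2, at 253 to 256 CPM in shScramble and 349 to 358 CPM in guide 2, was separated from the controls but, at a log2 fold change of 0.48, was not called. POLD3 was called in guide 1 alone, at 1.22. POLD4, the small accessory subunit, was at 10.9, 13.3 and 10.9 CPM in shScramble, 10.8, 9.93 and 8.93 CPM in guide 2 and 5.93, 5.76 and 5.85 CPM in guide 1. It was the only member called lower in guide 1 (log2 fold change -1.0 ± 0.11, edgeR adjusted p = 4.76e-09), and 21.3% of its exon bases are shared with another gene on the same strand. The ratio of POLD2 to POLD4 per kilobase was 18 in shScramble, 29.7 in guide 2 and 39.6 in guide 1.

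In polymerase ε, which makes the leading strand, the catalytic and accessory subunits parted. POLE stood at 191, 185 and 184 CPM in shScramble, 115, 118 and 117 CPM in guide 2 and 162, 189 and 174 CPM in the libraries labelled guide 1. It was 1.6-fold lower with guide 2 (log2 fold change -0.68 ± 0.0497, edgeR adjusted p = 3.61e-12), and it overlapped the controls in guide 1 (-0.09 ± 0.0487, edgeR adjusted p = 0.0939). POLE2, the second subunit, went from 7.54, 8.51 and 8.02 CPM in shScramble to 11.8, 12.6 and 11.4 CPM in guide 2 and 16.2, 18.3 and 15.5 CPM in guide 1. At log2 fold changes of 0.57 and 1.05, it was called in guide 1 alone, as was POLE3, at 0.31 and 0.85. The ratio of POLE to POLE2 in CPM was 21.7 to 25.3 in shScramble, 9.38 to 10.2 in guide 2 and 9.98 to 11.2 in guide 1, so it lay below the controls in both groups, beside a lower POLE and a higher POLE2 in guide 2 and a higher POLE2 in guide 1.

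Of the genes that remove primers and flaps, RNASEH2A, the catalytic subunit of RNase H2, was 2.26-fold and 2.52-fold higher, at 25.3 to 29.1 CPM in shScramble, 58.7 to 65.3 CPM in guide 2 and 62.7 to 73.3 CPM in guide 1. DNA2, a nuclease and helicase of long flaps, was at a log2 fold change of 0.51 with guide 2, not called, and was called at 0.75 in guide 1.

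The 3 genes of nucleotide supply were called higher in both groups and in neither direction between guide 2 and guide 1. RRM2, the subunit of ribonucleotide reductase that limits its activity in S phase, stood at 33.9, 29.4 and 32.1 CPM in shScramble, 97.2, 99.3 and 104 CPM in guide 2 and 80.2, 84.3 and 89.2 CPM in the libraries labelled guide 1. The rise was 3.15-fold with guide 2 (log2 fold change 1.65 ± 0.0572, edgeR adjusted p = 9.13e-19), the second largest of the members, and 2.66-fold in guide 1. RRM1, the large subunit, was at 80.2 to 84.4 CPM in shScramble, 142 to 152 CPM in guide 2 and 166 to 177 CPM in guide 1. The ratio of RRM2 to RRM1 was 0.352 to 0.402 in shScramble, 0.652 to 0.7 in guide 2 and 0.485 to 0.505 in guide 1, which separated the 3 groups. RRM2B, the alternative small subunit used outside S phase and not a member, was at log2 fold changes of -0.03 and -0.36, not called. TYMS, thymidylate synthase, was 1.99-fold and 1.86-fold higher, with 26.2% of its exon bases shared with ENOSF1 and TYMSOS on the other strand.

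Other genes of the pathway, from 3 lists of 55 genes chosen by function, were examined beside the members. Their counts stand against the 8.85% of all genes tested that were called higher and 20.4% lower with guide 2, and 21.2% higher and 16.5% lower in guide 1. Among 21 further genes of origin firing and fork protection, 8 (38.1%) were called higher and 1 lower with guide 2, and 15 (71.4%) higher and 0 lower in the libraries labelled guide 1. The largest rises with guide 2 were in CLSPN (1.41), the checkpoint mediator claspin, WDHD1 (1.04), which links polymerase α to the helicase, and CDCA5 (0.82), which holds sister chromatids together. MTBP, a partner of the firing factor treslin, was called lower with guide 2, from 8.51 ± 0.89 to 5.15 ± 0.288 CPM (SD, n = 3), and higher in guide 1, at 30.9 ± 1.15 CPM. In guide 1 the largest rises were in CDC25A (2.91), the phosphatase that activates CDK2, DTL (2.47), the ligase adaptor that targets CDT1, and CLSPN (2.34). MTBP (-2.59), CDC25A (-2.50) and DONSON (-2.38) had the largest direct differences between the guides.

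Among 17 further genes of synthesis and maturation, 7 (41.2%, against 8.85% of all genes) were called higher and 0 lower with guide 2, and 9 (52.9%, against 21.2%) higher and 2 (against 16.5%) lower in guide 1. FEN1, the flap nuclease, was at 44.1 ± 1.94 CPM in shScramble, 106 ± 6.46 CPM in guide 2 and 75.5 ± 5.74 CPM in guide 1 (SD, n = 3). DSCC1, a subunit of an alternative clamp loader, and UHRF1, which recruits DNMT1 to new DNA, followed with guide 2 at 1.09 and 1.03. EXO1 (2.72), DSCC1 (1.95) and ATAD5 (1.91), the clamp unloader, rose most in guide 1. POLE4, a small subunit of polymerase ε, fell in guide 1 by 0.77 on the log2 scale. The other called fall, RTEL1, shares 75.4% of its exon bases with a readthrough gene.

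Among 17 further genes of nucleotide supply, 6 (35.3%, against 8.85% of all genes) were called higher and 0 lower with guide 2, and 5 higher and 0 lower in guide 1, where 29.4% is near the 21.2% of all genes. SLC29A1, a nucleoside transporter, rose most in both, from 21.6 ± 0.65 CPM in shScramble to 74.9 ± 2.52 CPM in guide 2 and 63.3 ± 0.0561 CPM in guide 1 (SD, n = 3). TK1, thymidine kinase of S phase, was 112 ± 9.86 CPM in shScramble, 288 ± 18.3 CPM in guide 2 and 84.2 ± 1.36 CPM in guide 1, and its difference between the guides of 1.77 was called. DCK, deoxycytidine kinase, was called with guide 2 at 1.10. CAD (1.35) and CTPS1 (1.23), enzymes of pyrimidine synthesis, had the next largest rises in guide 1.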

How the data were processed

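Samples were grouped by their labels. The authors trimmed adapters with Trim Galore and cutadapt, aligned reads to GRCh38 with STAR, and deposited raw counts per gene from FeatureCounts, with no normalization. The strand setting and the handling of multiply matching reads are not given in the sources used here. Symbols were matched for 56558 of 60675 identifiers (93.2%).

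Counts were scaled by TMM, genes with few counts were removed (filterByExpr, minimum count 10, minimum total 15), and 19278 genes were tested with edgeR 4.0.16 (quasi-likelihood F test, robust, all 9 libraries, no covariates, Benjamini-Hochberg adjustment). Errors of log2 fold changes are model SEs. The procedure was tested on simulated data. Members and gene lists were chosen with earlier results of these data known. The luminal list leaves out 1 gene that is not reported here. Values are given per library for members with the largest change of their complex or opposed to it, and up to 3 called genes per direction are named from other lists. Alternatives were DESeq2 1.42.0, other scalings, filters, thresholds and sample sets, and a replicate block. Same-numbered libraries of different groups did not visibly deviate together (correlations from -0.0981 to 0.0529, against -0.0525 to 0.107 for different numbers). Correlations this small cannot show whether same-numbered libraries shared a culture or batch.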

Additional observations from a re-analysis of the deposited data

Results flagged for a closer look

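The response of 20 of the 47 replication genes differed between guide 2 and the libraries labelled guide 1 in the direct test of that difference (edgeR, adjusted p under 0.05 and at least 1.5-fold). Among all genes tested, 47.3% were called in this comparison, a larger share than among the members. The number of calls in both directions together therefore does not set the members apart from other genes in this fit. By direction, 18 of the 47 were called lower, against 28.2% of all genes tested, and 2 (4.26%) higher, against 19.1%. These counts depended on the scaling: with library size alone, 26 members were called lower and 1 higher, beside 9025 calls over all 19278 genes tested. The values here are log2 differences, guide 2 minus guide 1.

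In 18 genes guide 2 was lower. In the origin recognition complex these were ORC3 (-1.93), ORC6 (-1.14) and ORC4 (-0.64). All licensing genes were among them, with CDC6 at -1.0, CDT1 at -0.96 and GMNN at -0.85. In the helicase group they were MCM4 (-1.32), MCM3 (-1.07), MCM8 (-0.83), MCM6 (-0.75), MCM5 (-0.66), GINS2 (-1.30), GINS3 (-0.73) and CDC45 (-0.64). Among the polymerases they were POLA2 (-1.44), POLA1 (-0.93), POLD3 (-0.79) and POLE (-0.59). In 2 genes guide 2 was higher, RPA1 by 0.69 and POLD4 by 0.76. The summed level of the HEK293T list was 17.5 to 19.5 CPM in guide 2 and 497 to 528 CPM in guide 1, and its part in these differences was not tested.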

How the results depend on the processing

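Of the 28 members called higher with guide 2, 23 were called under every alternative. The calls of GINS2, GINS3, RFC5, RPA1 and PRIM2 were lost with library sizes alone, with upper-quartile scaling and with glmTreat (a test against 1.5-fold), that of RPA1 also, at 0.58, with a mean of at least 1 CPM and that of GINS3, at 0.54, without guide 2 replicate 2. In guide 1, 38 of the 40 higher calls and the lower call of POLD4 were kept under every alternative; RFC3 was lost with glmTreat and ORC2 with glmTreat, with upper-quartile scaling and, at 0.58, without shScramble replicate 3 or guide 1 replicates 2 or 3. Between the guides, 13 of 18 lower calls and 0 of 2 higher calls were kept under every alternative, and POLE moved to -0.58 with DESeq2.

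The count of members called lower with guide 2 was 1, and it was 2 with library size alone, upper quartile, a mean of at least 1 CPM and only the 6 libraries compared, where ORC3 joined POLE, 0 with glmTreat (POLE at an adjusted p of 0.0554), 4 with the adjusted p alone, and from 1 to 2 with a library left out. Without shScramble replicate 3 the second gene was ORC3 at -0.60, and without guide 2 replicate 2 it was ORC3 at -0.62. Members called higher between the guides went from 2 to 1 with library size alone and with glmTreat and to 7 with the adjusted p alone. Those called lower went from 18 to 26 with library size alone, 24 with upper quartile and 22 with a mean of at least 1 CPM. With glmTreat they went to 13, and with the adjusted p alone to 38. Over all genes, calls with guide 2 went from 5645 to 3261 with glmTreat and to 11910 with the adjusted p alone, which gave 13188 in place of 7265 for guide 1 and 14386 in place of 9125 between the guides. RFC3 changed sign between the guides, from 0.11 to -0.03, with library size alone. The causes were not tested.

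Library size alone moved the median of all genes with guide 2 from -0.04 to -0.19 and that of the members from 0.70 to 0.55, and upper-quartile scaling moved them to -0.17 and 0.57. The share of guide 2 calls that were higher was 30.2%, and 17.2% and 18.6% with these scalings, and between the guides it was 40.4%, and 31.3% with library size alone. With the replicate number as a block, 5494 genes were called with guide 2, and 1 member call changed, that of POLE between the guides, which moved to -0.58. The lowest count of any member in any library was 150.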

Other observations

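Genes that work beside the fork or after S phase were read from lists chosen by function. Of 11 genes of replication-coupled chromatin assembly, 4 (36.4%, against 8.85% of all genes tested) were called higher and 0 lower with guide 2 and 9 (81.8%, against 21.2%) higher and 0 lower in the libraries labelled guide 1. ASF1B, a histone chaperone of dividing cells, was at 23.4 ± 1.19 CPM in shScramble, 61.3 ± 0.518 CPM in guide 2 and 48.9 ± 1.21 CPM in guide 1 (SD, n = 3), whereas its paralogue ASF1A, named after its values were seen, was at 35.3 ± 0.441, 30.7 ± 1.24 and 40.1 ± 1.96 CPM and was not called. CHAF1B and TONSL had the next largest rises with guide 2, at 0.89 and 0.83, and CHAF1B (1.35) and MMS22L (1.27) the largest in guide 1.

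Of 20 genes of G2 and M phase, 4 were called higher and 0 lower with guide 2, a share of 20% against 8.85% of all genes tested and 59.6% of the replication genes. Their median log2 fold change was 0.35. By the adjusted p alone, 18 of the 20 were higher and 1 lower, against 30.0% and 31.7% of all genes tested. All guide 2 libraries lay above shScramble in 17 and below it in 1, against 32.5% and 34.1%. The largest were BUB1B (0.91), CCNA2 (0.74) and CDC20 (0.64). In the libraries labelled guide 1, 9 were called higher and 0 lower, a share of 45% against 21.2% of all genes tested, with a median of 0.53, led by AURKB (1.61), TPX2 (1.27) and CCNA2 (1.23). MKI67, 1 of the 16 not called with guide 2, was named after its values were seen. It was at 143 ± 15.7 CPM in shScramble and 147 ± 7.12 CPM in guide 2 (SD, n = 3), with an edgeR adjusted p of 0.704.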
